A study of Mus musculus with 23 samples.

Results

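The genes described here are the 6 mouse members of the *Lin28*, *Hmga2* and *Igf2bp* families, *Lin28a*, *Lin28b*, *Hmga2*, *Igf2bp1*, *Igf2bp2* and *Igf2bp3*, found by symbol among the 50123 genes of a table of RNA-seq read counts. They were chosen by name and not by their values, and each was matched to 1 row. The counts come from fetal thymic epithelial cells (TECs), sorted as EPCAM+ cells from C57BL/6 mouse embryos and separated by PLET1, a surface protein that marks early TECs. There were 23 libraries in 7 groups. *Rbpj* conditional knockout (cKO) embryos carried Foxn1Cre and 2 floxed *Rbpj* alleles, so that RBPJ, the DNA-binding partner through which all Notch receptors act on genes, was removed in cells that express *Foxn1*; deletion starts only shortly before E12.5. Controls, which the labels call wild type, were littermates from the same cross. One parent of this cross had 2 floxed *Rbpj* alleles, so that each control carried at least 1. Whether the controls also carried Foxn1Cre is not stated. NICD embryos carried Foxn1Cre and a *Rosa26* allele that, once recombined, expresses the Notch1 intracellular domain (NICD), the active part of the receptor, together with EGFP. Control and cKO groups had 3 libraries each at E12.5 (PLET1+ cells) and at E14.5 (PLET1+ and PLET1- cells separately), and the NICD group had 5 libraries of E14.5 PLET1+ cells. The NICD embryos came from a single litter and were sorted in a different laboratory from the Rbpj cross, so that genotype and batch cannot be told apart for them. In the same way, E12.5 and E14.5 libraries belonged to different batches, and embryonic day and batch cannot be told apart.

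LIN28A and LIN28B are RNA-binding proteins that block maturation of the let-7 microRNAs by binding their precursors, and let-7 in turn represses the mRNAs of both *Lin28* genes, of *Hmga2* and of the *Igf2bp* genes. HMGA2 is a chromatin protein that bends AT-rich DNA and is abundant in embryonic but scarce in most adult cells. IGF2BP1, IGF2BP2 and IGF2BP3 bind mRNAs, among them that of insulin-like growth factor 2, and control their stability, location and translation. In blood stem cells the LIN28B, let-7 and HMGA2 axis is known for separating fetal from adult behaviour, which is why these genes are read here as timing genes. The comparisons ask whether they differed between E12.5 and E14.5, and whether loss or gain of Notch activity moved them.

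What joins the members beyond their names is the let-7 seed, the bases 2 to 8 that pair with an mRNA. Mature let-7 was not measured, because these libraries capture polyadenylated RNA. Of the 11 mature microRNAs of the family listed by RefSeq, 10 had the same seed, which is in capitals in the 3 printed here to show how little the rest of the molecule varies:
mmu-let-7a-5p: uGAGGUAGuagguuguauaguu
mmu-let-7g-5p: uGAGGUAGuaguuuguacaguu
mmu-miR-98-5p: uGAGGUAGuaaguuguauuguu

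The DNA letters that pair with this seed, CTACCTC, were searched on the mRNA strand of the 3′UTR of 1 transcript a gene (GENCODE M21, GRCm38). All 6 members had at least 1 match, whereas 8.0% of the 20659 3′UTRs searched did. *Hmga2*, *Lin28b* and *Igf2bp1* had 4 each, a number that only 11 of all 3′UTRs reached. *Lin28a* had 2, and *Igf2bp2* and *Igf2bp3* had 1 each. Longer 3′UTRs hold more matches by length alone, and among 3′UTRs of like length to that of *Hmga2* (3014 bases), 15.7% had a match and 0.11% had as many as 4. Per kb of 3′UTR, *Hmga2* had 1.33 matches and *Igf2bp3* 0.472, against 0.069 over all 3′UTRs. The 4 matches of *Hmga2* and the match nearest to the stop codon in each other gene are shown, all on the minus strand of the genome and printed as in the mRNA, with the match in capitals:
*Hmga2* 1, chr10:120364224-120364253: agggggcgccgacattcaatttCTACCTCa
*Hmga2* 2, chr10:120362987-120363016: caataatccccactcctcaataCTACCTCt
*Hmga2* 3, chr10:120362549-120362578: ggacttcctgatttgcaaggaaCTACCTCc
*Hmga2* 4, chr10:120361691-120361720: gttgtacaatcaaaacacactaCTACCTCt
*Lin28a*, chr4:134005189-134005218: ttggagtgcacagcctgttgaaCTACCTCa
*Lin28b*, chr10:45381022-45381051: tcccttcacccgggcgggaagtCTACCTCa
*Igf2bp1*, chr11:95961778-95961807: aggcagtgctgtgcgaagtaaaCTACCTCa
*Igf2bp2*, chr16:22059473-22059502: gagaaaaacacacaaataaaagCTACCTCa
*Igf2bp3*, chr6:49086787-49086816: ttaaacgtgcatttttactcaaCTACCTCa

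A match is a run of letters and not a tested site. In *Hmga2* and *Lin28b* the first match lay 58 and 36 bases after the stop codon, and the others were spread over the rest of the 3′UTR.

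**Figure D1:**
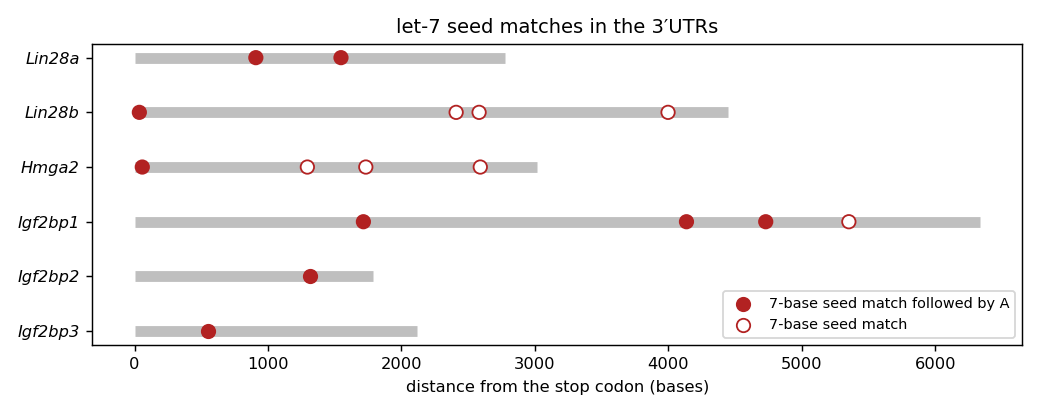
Position of let-7 seed matches (circles) along the 3′UTR (grey bar) of each gene, as distance from the stop codon in bases; filled circles are matches followed by A. *Lin28b*, *Hmga2* and *Igf2bp1* have 4 matches each, *Lin28a* has 2 and the other two have 1.

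TEC markers were expressed in every library, and mesenchyme markers in some. Total counts ran from 20053241 to 92699969 a library, and values below are read counts scaled to library size (CPM) after TMM normalization. *Epcam* was at 369 to 946 CPM in every library. Summed over 18 TEC markers, the level was 9300.5 to 12233 CPM at E12.5, 12740 to 25580 CPM in the E14.5 Rbpj cross and 8776 to 13872 CPM in NICD. *Rbpj* was at 15.1, 20.1 and 37.9 CPM in E12.5 controls and 9.48, 16.2 and 2.09 CPM in E12.5 cKO, so that these groups overlapped. At E14.5 it was lower in every cKO library than in every control of the same gate. PLET1+ cells ranged over 0.061 to 10.4 CPM in the cKO and 18.4 to 20.4 CPM in controls. PLET1- cells ranged over 3.42 to 8.29 CPM in the cKO and 9.50 to 26.2 CPM in controls. Even so, no *Rbpj* difference passed edgeR's test (adjusted p = 1). *Notch1*, whose row can also collect reads of the NICD transgene, was 30.4 to 87.0 CPM in NICD and at most 19.3 CPM elsewhere (log2 fold change against E14.5 PLET1+ controls 1.39, edgeR adjusted p = 0.578). Markers of parathyroid cells, which arise from the same pouch as the thymus, moved with age: *Gcm2*, *Pth* and *Casr* together were 661 to 8799.6 CPM in the 6 E12.5 libraries, with E12.5 control replicate 3 highest, and 0.458 to 389 CPM in E14.5 PLET1+ libraries of the cross. The 12 mesenchyme markers summed to 6.81 to 24.4 CPM in E14.5 PLET1+ controls, but to 509 and 1453 CPM in PLET1- control replicates 1 and 2, 599 CPM in PLET1- cKO replicate 1 and 221 to 426 CPM in 4 of 5 NICD libraries (23.5 CPM in replicate 3). The 12 cell-cycle genes summed to 1342 to 2753 CPM at E12.5 and 2835 to 3509.8 CPM in those E14.5 PLET1+ libraries. In pools of sorted cells, fewer cells of a type and less RNA per cell cannot be told apart.

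*Hmga2* was on average the most abundant member, and the only one that edgeR called with age in each genotype taken alone. It was at 1019, 865 and 500.1 CPM in E12.5 controls and at 665, 804 and 942 CPM in E12.5 cKO libraries. At E14.5 the PLET1+ controls were down at 196, 83.5 and 154 CPM. Their cKO counterparts measured 153, 62.3 and 66.9 CPM. The lowest of the 6 E12.5 libraries was thus 2.26 times the highest of all 17 E14.5 libraries, NICD included. E12.5 and E14.5 libraries did not overlap in this gene, as in 72 of 19140 genes tested (0.376%) that were higher in each E12.5 library.

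In controls *Hmga2* fell 5.30-fold from E12.5 to E14.5 (log2 fold change -2.41, standard error 0.51, 95% confidence interval -3.49 to -1.33, adjusted p = 0.0263 by the quasi-likelihood method of edgeR, with Benjamini-Hochberg correction across 19140 genes). The cKO libraries were separate from those of the controls, but came from the same batches at each age and were part of the same fit. In them *Hmga2* fell 8.83-fold (log2 fold change -3.14, standard error 0.53, interval -4.25 to -2.03, edgeR adjusted p = 0.00619). Of the 5 members tested, 1 was called lower in each of these comparisons, where 0.136% of genes were called lower in controls and 0.230% in the cKO. Of all calls, 85.9% in controls and 70.7% in the cKO were higher at E14.5, and 74.0% and 93.7% when libraries were scaled to housekeeping genes, which moved the median of all genes from 0.19 to 0.072 and from 0.18 to 0.39; *Hmga2* stayed called lower in both. The 2 lists of genes called lower shared 12 genes, 46.2% of the 26 in controls and 27.3% of the 44 in the cKO, and *Hmga2* was among them. In controls the adjusted p was over 0.05 in 5 of 6 fits that left out 1 library (all but that without E12.5 control replicate 3), at log2 fold changes from -2.81 to -2.07 over the 6 fits, and 0.163 when only the 2 groups were fitted. The cKO call was lost in 3 of 6 such fits (without E12.5 cKO replicate 3 and E14.5 PLET1+ cKO replicates 2 and 3) and when only the 2 groups were fitted (adjusted p = 0.290), again with no change of direction.

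**Figure D2:**
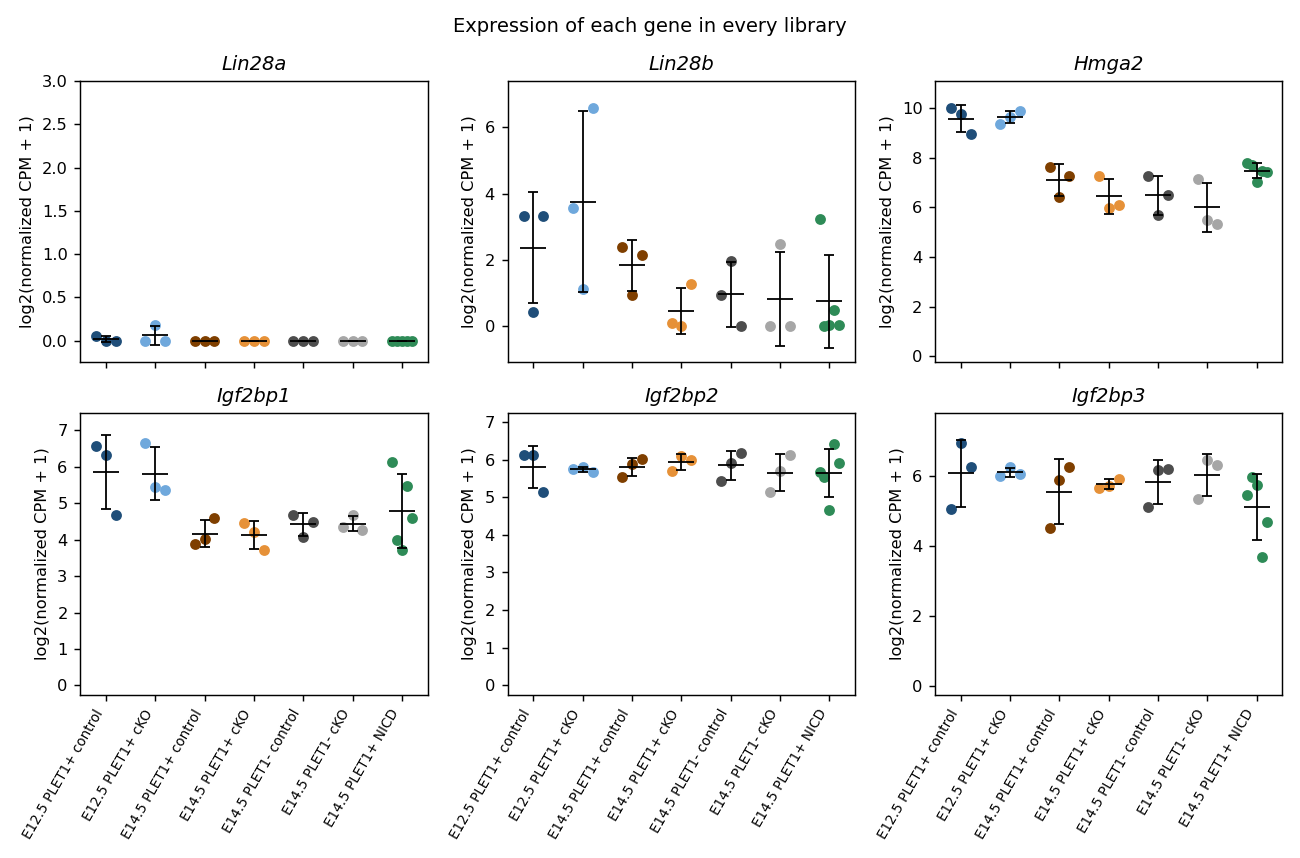
Expression of the 6 genes as log2(normalized CPM + 1) in each of 23 libraries (points), by group, with the group mean (bar) and SD (whiskers). For *Hmga2*, the 6 E12.5 libraries lie above the 17 E14.5 libraries. The ranges of *Igf2bp2* overlap between all groups. Those of *Igf2bp3* overlap between the ages as a whole, but not between all groups. Its E12.5 cKO libraries (62.7 to 75.3 CPM) lie above E14.5 PLET1+ cKO (48.8 to 59.6 CPM) and NICD (at most 61.5 CPM). How many of all genes separate so between groups this small was not counted. Its age difference in the cKO was -0.34 and was not called (edgeR adjusted p = 0.907). *Lin28a* is at or near 0.

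The size of the *Hmga2* difference did not pass a test of being unlike in the 2 genotypes. The age difference in cKO minus that in controls was -0.74 (95% confidence interval -2.20 to 0.73), with an edgeR adjusted p of 1, in a comparison that called 0 of 19140 genes (0%), 603 of them at an unadjusted p under 0.05, against 193 genes called by DESeq2 and 0 by limma-voom. The interval is wide on both sides of 0, so these libraries leave the size of such a difference undetermined.

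Markers of parathyroid cells were read beside *Hmga2* library by library. PLET1- control replicates 1 and 2 at E14.5 had parathyroid marker sums of 1448 and 886 CPM, within the range of the E12.5 libraries, and their *Hmga2* was 155 and 51.1 CPM. E12.5 control replicate 3, with the highest parathyroid sum (8799.6 CPM), had the lowest *Hmga2* of its age, 500.1 CPM, and without this library the fall in controls was -2.81 on the log2 scale (edgeR adjusted p = 0.0288). The PLET1- libraries belong to another gate than the E12.5 ones, and within PLET1+ TECs these markers and *Hmga2* were both lower at E14.5; the part of parathyroid cells in the age difference was not tested.

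**Figure D3:**
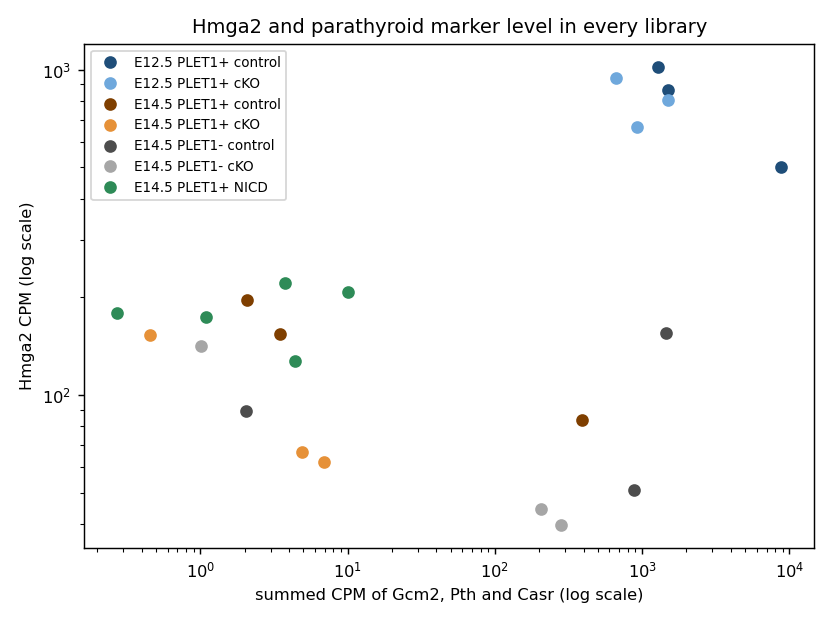
*Hmga2* (CPM, log scale) against the summed level of the parathyroid markers *Gcm2*, *Pth* and *Casr* (CPM, log scale) in each of 23 libraries, coloured by group. The 6 E12.5 libraries are at 500.1 CPM of *Hmga2* or more; E14.5 libraries with 886 and 1448 CPM of the markers are at 51.1 and 155 CPM.

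Notch loss did not move *Hmga2* past the test at either age or in either gate. At E12.5 the log2 fold change of cKO against control was 0.059 (95% confidence interval -0.98 to 1.10). It was -0.68 (-1.71 to 0.35) in E14.5 PLET1+ TECs and -0.45 (-1.48 to 0.57) in PLET1- TECs, where controls had 155, 51.1 and 89.1 CPM and cKO 141, 44.5 and 39.7 CPM. All 3 edgeR adjusted p-values were 1. At E14.5 the differences of log2(CPM + 1) between same-numbered cKO and control libraries were -0.36, -0.42 and -1.19 in PLET1+ TECs. In PLET1- TECs they were -0.14, -0.20 and -1.15. How many of all genes kept 1 direction in such pairs was not counted. Of the other members, *Igf2bp2* was lower in 3 of 3 PLET1- pairs and *Igf2bp3* higher in 3 of 3. Same-numbered libraries of the 2 gates deviated together, so the gates are not separate sets of pairs. Same-numbered E14.5 libraries deviated together across genes, and with the replicate number as a block the PLET1+ value was -0.68 with a standard error of 0.29 (unadjusted p = 0.0342, adjusted p = 1 from edgeR). Within batches, the PLET1+ difference was -0.37 over 2 libraries a group in batch 3 and -1.19 between single libraries in batch 4, and at E12.5 it was -0.36 in batch 1 and 0.91 in batch 2, so the direction at E12.5 differed between batches.

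With Notch gain, *Hmga2* overlapped the controls of its own age. NICD libraries had 221, 207, 127, 178 and 173 CPM, a range that overlapped that of E14.5 PLET1+ controls (83.5 to 196 CPM) and lay below each E12.5 library. Against E14.5 controls the log2 fold change was 0.30 (95% confidence interval -0.62 to 1.22, edgeR adjusted p = 0.836), and of 5 members tested 0 were called by edgeR, DESeq2 or limma-voom and 0 had an unadjusted p under 0.05, beside 0.684% of all genes called by edgeR, of which 38.9% were higher in NICD, or 78.7% under housekeeping scaling. Against E12.5 controls *Hmga2* was 4.31-fold lower (log2 fold change -2.11, standard error 0.43, edgeR adjusted p = 0.0105), the only one of 5 members called in a comparison where 1.17% of genes were called lower (58.4% of all calls were higher in NICD, and 71.3% under housekeeping scaling). These comparisons share the control libraries with the age comparison. Without E12.5 control replicate 1 the adjusted p of the last was 0.0584, at -1.88.

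PLET1- TECs had *Hmga2* levels that overlapped those of PLET1+ TECs. The difference of PLET1- from PLET1+ was -0.58 (-1.60 to 0.44) in controls and -0.36 (-1.38 to 0.67) in the cKO, with edgeR adjusted p-values of 1. In same-numbered pairs the differences of log2(CPM + 1) were -0.34, -0.70 and -0.78 in controls and -0.12, -0.48 and -0.74 in the cKO. Same-numbered libraries of the 2 genotypes deviated together, so these are not separate sets of pairs. How many of all genes kept 1 direction in them was not counted. With the replicate block the control value was -0.63 (unadjusted p = 0.0467, adjusted p = 1 from edgeR). Neither comparison called any gene (0%): 550 and 442 genes had an unadjusted p under 0.05, DESeq2 called 153 and 152, and limma-voom 1 and 2.

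**Figure D4:**
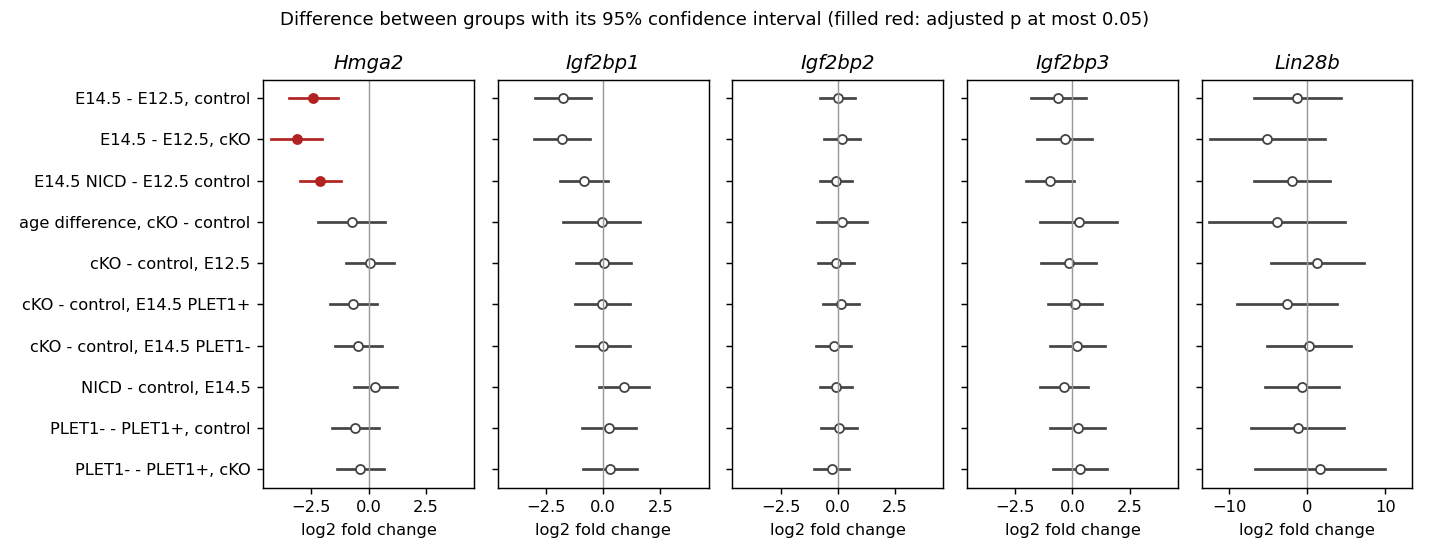
Log2 fold change (point) with its 95% confidence interval (line) for each of 5 genes in the 10 comparisons; filled red points have an edgeR adjusted p of at most 0.05. Only the 3 *Hmga2* comparisons between E14.5 and E12.5 libraries are filled; the x axis for *Lin28b* is wider.

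*Igf2bp1* had a like direction with age and did not pass the test. Its levels were 94.4, 78.7 and 24.8 CPM in E12.5 controls and 98.6, 42.3 and 39.8 CPM in E12.5 cKO. The E14.5 PLET1+ values were 13.7, 15.3 and 23 CPM in controls. In the cKO they were 21.1, 17.3 and 12 CPM. The E12.5 libraries were above all 12 of the E14.5 Rbpj cross, of which the highest had 24.7 CPM. The lowest E12.5 library, control replicate 3, cleared it only by a margin smaller than the spread of any group. The share of all genes that separate from these 12 libraries was not counted. With NICD libraries included, at up to 68.9 CPM, the ages overlapped. The log2 fold change was -1.74 (standard error 0.58, unadjusted p = 0.00790, edgeR adjusted p = 0.218) in controls and -1.81 (standard error 0.58, unadjusted p = 0.00609, edgeR adjusted p = 0.214) in the cKO. DESeq2 called both (adjusted p = 0.0342 and 0.0320), in comparisons where it called 1281 and 1083 genes and edgeR 185 and 150. EdgeR also called the age difference averaged over the genotypes (-1.77, adjusted p = 0.0167), with 984 genes called. That alternative was added after the data were seen. Limma-voom called neither (adjusted p = 0.202 in controls and 0.506 in the cKO). Nor did edgeR under housekeeping scaling (adjusted p = 0.198 and 0.344).

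In NICD libraries *Igf2bp1* spread over the ranges of both ages. Replicates 1 and 4 had 68.9 and 43.8 CPM, as high as E12.5 libraries, and replicates 2, 3 and 5 had 14.9, 12.1 and 23.3 CPM, within the range of the E14.5 Rbpj cross (12 to 24.7 CPM). The log2 fold change against E14.5 controls was 0.91 (95% confidence interval -0.19 to 2.01, edgeR adjusted p = 0.421), and against E12.5 controls -0.83 (-1.87 to 0.21, edgeR adjusted p = 0.412). The 2 high libraries also had the highest sums of the 12 mesenchyme markers among NICD libraries, 350 and 426 CPM, but replicate 5, at 341 CPM of these markers, was not high in *Igf2bp1*; the part of such cells in the values was not tested. Between cKO and control its log2 fold change was 0.027 (-1.17 to 1.22) at E12.5, -0.044 (-1.24 to 1.15) in E14.5 PLET1+ and 0.0084 (-1.17 to 1.19) in E14.5 PLET1- TECs, each with an edgeR adjusted p of 1.

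*Igf2bp2* and *Igf2bp3* were expressed in each library and were called in no comparison. *Igf2bp2*, which many adult tissues keep, was at 34.4 to 69.3 CPM at E12.5 and 24.4 to 84.7 CPM at E14.5. Its age difference was 0.0012 in controls (95% confidence interval -0.76 to 0.77) and 0.19 in the cKO (-0.59 to 0.97), so that a fall as large as that of *Hmga2* in controls lay outside both intervals. *Igf2bp3*, an oncofetal member, was at 32.0 to 121 CPM at E12.5 and 11.7 to 86.1 CPM at E14.5. Its age difference was -0.61 (-1.81 to 0.58) in controls and -0.34 (-1.53 to 0.85) in the cKO. NICD libraries had 42.8, 61.5, 52.5, 11.7 and 24.6 CPM of *Igf2bp3*, with a log2 fold change of -0.36 (-1.42 to 0.69) against E14.5 and -0.98 (-2.02 to 0.06) against E12.5 controls. *Igf2bp3* overlaps *Malsu1* on the other strand (51876 counts over all libraries against 58448), and *Hmga2* overlaps the antisense RNAs *1700006J14Rik* and *9230105E05Rik* (7841 and 20022 counts against 271356); the libraries carry no strand, so reads of such overlaps cannot be told apart.

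*Lin28b* was low and very uneven among replicates, and *Lin28a* was not detected beyond 3 reads. *Lin28b* counts were 217, 21 and 489 in E12.5 controls and 317, 26 and 1667 in E12.5 cKO, or 9.03, 0.344 and 9.07 CPM and 10.8, 1.19 and 94.3 CPM. At E14.5, PLET1+ TECs had 4.26, 0.926 and 3.44 CPM in controls, against 0.061, 0 and 1.40 CPM in the cKO. The PLET1- TECs had 0.894, 2.90 and 0 CPM in controls, and 0, 4.51 and 0 CPM in the cKO. NICD replicate 1 had 8.43 CPM and the other four between 0 and 0.396 CPM. Medians were 9.05 CPM over 6 E12.5 libraries and 0.396 CPM over 17 at E14.5, but the ranges overlapped and the log2 fold change had intervals of -6.81 to 4.36 in controls and -12.5 to 2.34 in the cKO (edgeR adjusted p = 0.917 and 0.627). In E14.5 PLET1+ TECs each cKO library was below its same-numbered control, at counts of 2, 0 and 59 in the cKO. The log2 fold change was -2.57 (-8.95 to 3.82, edgeR adjusted p = 1). In PLET1- TECs 1 pair was higher in the cKO and 1 lower. At E12.5, where the numbers do not pair the libraries, each cKO library was above its same-numbered control. How many of all genes kept 1 direction in such pairs was not counted. *Lin28a* had 1 count in E12.5 control replicate 1, 3 counts in E12.5 cKO replicate 2 and 0 in the other 21 libraries, and did not pass the expression filter. A count of 0 allows up to 3 counts, which is 0.0378 CPM in the deepest library and 0.170 CPM in E12.5 cKO replicate 3, where it is highest; these limits cover counting error only, because PCR copies of 1 molecule are counted as separate reads.

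Per kb of exon, the scale on which genes can be compared, *Hmga2* had the highest mean in each group, but not the highest level in each library. In E12.5 controls it was at 117 ± 39.4 CPM per kb (mean ± SD, n = 3), rank 611 of 19140 genes tested. *Igf2bp3* (9.31 ± 5.47), *Igf2bp2* (8.07 ± 2.81) and *Igf2bp1* (6.81 ± 3.77) followed within each other's spread, and *Lin28b* was last of the 5 at 0.678 ± 0.555. In E14.5 PLET1+ controls *Hmga2* was at 21.3 ± 8.40 CPM per kb, rank 2594, above *Igf2bp2* at 7.81 ± 1.27 and *Igf2bp3* at 6.32 ± 3.36, which overlapped. *Igf2bp1* was at 1.79 ± 0.514, below both, and had gone from rank 5260 to rank 9512. The lead of *Hmga2* was not held throughout PLET1- TECs: in PLET1- cKO it averaged 11.1 ± 8.42 CPM per kb against 8.32 ± 3.08 for *Igf2bp3*, and in replicates 2 and 3 its 6.57 and 5.86 CPM per kb were below both *Igf2bp2* (7.17 and 9.69) and *Igf2bp3* (10.6 and 9.60). PLET1- control replicate 2 and PLET1+ cKO replicate 2 had *Hmga2* at 7.55 and 9.20 CPM per kb and *Igf2bp2* at 8.34 and 9.53. In NICD, *Igf2bp1* (3.36 ± 2.46 CPM per kb) and *Igf2bp2* (7.39 ± 3.08) overlapped.

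Across the 23 libraries, log2(CPM + 1) of *Hmga2* and *Igf2bp1* had a Pearson's r of 0.73, which was 0.33 once group means were removed; for *Lin28b* and *Hmga2* these were 0.50 and -0.02. *Hmga2* with *Igf2bp2* or *Igf2bp3* gave -0.08 and -0.01. The libraries share age, batch and depth, so these values describe the table only. Among 9743 protein-coding genes with a mean of at least 5 CPM, those most like *Hmga2* included *D430041D05Rik* (r = 0.91) and *Sox11* (r = 0.91), a transcription factor of embryonic progenitors. For *Igf2bp1* the 3 most like it were *Tmem189*, *Ppp1r9a* and *Rflnb* (r = 0.78, 0.78 and 0.77), for *Lin28b* *Dmxl1*, *Tnpo1* and *Chic2* (0.81, 0.75 and 0.73), for *Igf2bp2* *Sf3a1*, *Tcp11l2* and *Fto* (0.82, 0.81 and 0.79) and for *Igf2bp3* *Sec23a*, *Vcl* and *Gde1* (0.78, 0.76 and 0.76). The age difference of *Sox11* in controls was -2.46, which passed the test.

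The genes around the members were read from lists of let-7 processing factors, let-7 host genes, and fetal and imprinted growth genes, all chosen with results of these data known; members of these lists that were not called are named below after their values were seen. Of 19 processing factors, which include Drosha, Dicer, the uridylating enzymes TUT4 and TUT7 that LIN28 recruits and the exonuclease DIS3L2, 18 passed the filter and 0 were called in either age comparison by edgeR, 4 in controls and 5 in the cKO having an unadjusted p under 0.05. Over all genes tested, 12.9% in controls and 11.3% in the cKO had such a p, the background for these and the following list counts. Their median log2 fold change with age was -0.14 in controls and -0.18 in the cKO, where the medians of all genes were 0.19 and 0.18. The lowest p in controls after adjustment was that of *Tut4* (listed as *Zcchc11*), with 134 CPM on average in E12.5 controls, 43.3 CPM in E14.5 PLET1+ controls and a log2 fold change of -1.67 (edgeR adjusted p = 0.0837). *Trim71*, a ubiquitin ligase of the same circuit and itself a let-7 target with 4 seed matches, was low, at a mean of 0.673 CPM over all libraries. It had a mean of 3.32 CPM in E12.5 controls and 0.0242 CPM in E14.5 PLET1+ controls. The log2 fold change was -7.65 (standard error 3.01, edgeR adjusted p = 0.32). The other genes tested with 4 or more matches, the members left out, ranged from -2.44 to 1.06 with age in controls. Of 5 host genes of let-7, 3 were matched and tested and 0 were called by edgeR, 1 in each genotype having an unadjusted p under 0.05. *Mir99ahg*, the host of a let-7c gene, was at 46.2 CPM on average in E12.5 and 17.4 CPM in E14.5 PLET1+ controls (log2 fold change -1.42, edgeR adjusted p = 0.247). Host RNA is not a measure of the mature microRNA.

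Of 20 fetal growth genes, most of them known let-7 targets or relatives of the members, 0 were called with age in controls by edgeR (6 at an unadjusted p under 0.05). In controls 12 of the 20 were below 0, with a median of -0.72, and in the cKO 16 of 20, with a median of -0.74. *Hmga1*, the other gene of the *Hmga2* family, had means of 9.90 CPM at E12.5 and 56.5 CPM at E14.5 in controls (log2 fold change 2.43, edgeR adjusted p = 0.185). *Arid3b* and *Hic2* had means of 32.8 and 19.3 CPM in E12.5 controls and 4.26 and 2.86 CPM at E14.5, with edgeR adjusted p-values of 0.314 and 0.511.

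Of 11 imprinted growth genes, 10 were tested. In controls 9 of these were below 0 with age (median -1.58) and 0 were called by edgeR, 5 having an unadjusted p under 0.05; in the cKO all 10 were below 0 (median -1.25) and 1 was called, *Grb10*, an adaptor that restrains insulin and growth factor signaling (log2 fold change -1.40, standard error 0.23, edgeR adjusted p = 0.00466). *Igf2*, the mRNA after which the *Igf2bp* genes are named, had means of 101 CPM in E12.5 and 21.3 CPM in E14.5 PLET1+ controls (log2 fold change -2.14, edgeR adjusted p = 0.237). Against E14.5 controls, NICD libraries were called higher in *Igf2r*, the receptor that clears IGF2 (log2 fold change 2.07, standard error 0.42, edgeR adjusted p = 0.0271). Against E12.5 controls they were called lower in *Cdkn1c*, a cell-cycle inhibitor (-1.70, standard error 0.44, edgeR adjusted p = 0.0466). E14.5 PLET1+ controls were low in it too, with a mean of 11.8 CPM against 17.05 CPM in NICD and 54.6 CPM in E12.5 controls. Its age difference in controls was -2.24 (edgeR adjusted p = 0.0516), and NICD against E14.5 controls gave 0.54 (edgeR adjusted p = 0.639). Mesenchyme markers moved with both NICD comparisons. Their median sum was 341 CPM in NICD, 16.5 CPM in E14.5 PLET1+ controls and 23.1 CPM in E12.5 controls, and their part in the calls was not tested.

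**Figure D5:**
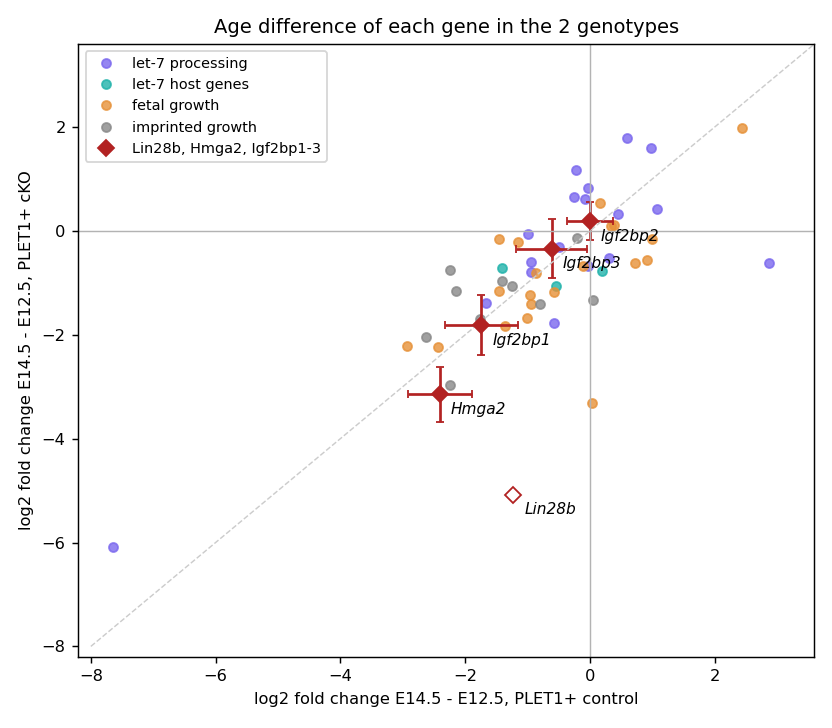
Log2 fold change from E12.5 to E14.5 in PLET1+ controls (x) and PLET1+ cKO (y) for the members (red diamonds, whiskers are standard errors, omitted for *Lin28b*) and for the genes tested in 4 lists (circles). *Hmga2* and *Igf2bp1* lie at the lower left near the dashed line of equal change, and *Igf2bp2* lies near 0 on both axes.

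The number of seed matches in a 3′UTR was then set beside the age difference over all genes tested, the members left out. In controls the median log2 fold change was 0.15 over 12765 genes with no match, 0.01 over 1104 with 1, 0.04 over 131 with 2 and -0.61 over 22 with 3 or more. In the cKO the medians were 0.16, -0.05, -0.24 and -0.31. Of the 22 genes with 3 or more matches, 63.6% in controls and 59.1% in the cKO were below 0, compared with 44.9% and 44.3% of genes with none. By edgeR 0 of these 22 were called in either age comparison. Among all genes tested, 0.967% in controls and 0.784% in the cKO were called in either direction. Against E14.5 controls, NICD gave medians of 0.02, 0.11, 0.05 and 0.04 in the same order. Match number goes with 3′UTR length and expression level, and their part in these medians was not tested.

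In the 3 comparisons of cKO with control, 0 of 5 members were called by edgeR. With TMM scaling and no replicate block, 0 of 5 had p under 0.05 before adjustment, whereas *Hmga2* in E14.5 PLET1+ TECs did with the block (unadjusted p = 0.0342, adjusted p = 1). Among all genes, edgeR called 5 at E12.5 (0.0261%), *Xaf1*, *Fgl2*, *Lgals3*, *Zcchc4* and *H2-Q7*, all higher in the cKO and named after their values were seen. In E14.5 PLET1+ and PLET1- TECs it called none (0%), with 395 and 447 genes at an unadjusted p under 0.05, while DESeq2 called 100 and 160 and limma-voom 0 and 0; no member was called there by any of these tools. A promoter window around the transcription start was given by RefSeq (GRCm38) for 5 of the members, all but *Igf2bp1*. That of *Lin28b* (chr10:45470152-45470451) lay within the GENCODE gene (chr10:45376620-45486395, minus strand) and not at its start, so the sequence at that start was not searched. None of the 5 held the letters GTGGGAA, the core of the RBPJ motif, on either strand, where 6.38% of 32851 windows did, which says only that these letters were not in these windows.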

How the data were processed

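Libraries were made by Smart-seq2 from small pools of sorted cells. Per the labels and the file headers, the authors trimmed reads with Trimmomatic 0.32, aligned them with STAR 2.5.1a and counted them per gene with featureCounts (1.5.1 in the submitters' processing notes, 1.5.0-p3 in the header) on GENCODE M12, GRCm38; the deposited values are raw counts. Gene names and coordinates were taken from GENCODE M21 (98.4% of IDs matched).

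Counts were TMM-normalized and tested by edgeR's quasi-likelihood test (edgeR 4.0.16, limma 3.58.1, R 4.3.3) over all 7 groups with batch terms where they could be fitted. Genes passing edgeR's expression filter (19140 of 50123) were tested, with Benjamini-Hochberg adjustment over all of them and a threshold of 0.05. CPM values use TMM library sizes; pair and correlation values use log2(CPM + 1). DESeq2 1.42.0, limma-voom, other scalings, filters and models, and fits without each library in turn were alternatives. The procedure was tested on simulated data. Nothing in the labels used here ties libraries to separate embryos in every group, so p-values measure the spread between libraries.

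The members and gene lists were chosen with earlier results of these data known. Genes named are the members, *Rbpj* and *Notch1*, up to 3 called genes a list and the 3 most correlated genes a member; others are said to be named after their values were seen, and 1 gene that this rule picks is not reported here. Same-numbered E14.5 libraries deviated together (correlation of deviations 0.26 to 0.56 in every pair), so these numbers pair the libraries; those at E12.5, between ages and for NICD did not.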

Additional observations from a re-analysis of the deposited data

Results flagged for a closer look

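In the group of 5 NICD libraries, replicate 1 stood apart from the other four in 3 of 12 measures examined, where a Dixon test at this level flags about 1 in 20 groups by chance. Its *Lin28b* level was 8.43 CPM, against 0.396 CPM in the next library. Its summed TEC markers were lowest, at 8776 CPM, against 13401 CPM in the nearest library, and its summed erythroid markers were highest, at 0.934 CPM, against 0.0273 CPM. The same library had the highest *Igf2bp1* of its group, 68.9 CPM, a value that did not pass the same test. No member differed in its age effect between genotypes by the interaction test.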

How the results depend on the processing

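Of 794 alternative values of the members' fold changes, 710 kept their direction and their side of the threshold; the 70 that changed sign were not called (lowest adjusted p 0.828). *Hmga2* stayed lower with age in each alternative. It was called in 10 of 16 in controls (adjusted p 1.11e-06 to 0.200) and 11 of 15 in the cKO (1.98e-10 to 0.290), and was -2.40 in controls when only the groups compared were fitted. Against E12.5 controls, NICD was called in 16 of 17. Each of these counts includes the replicate block, although replicate numbers did not pair libraries between ages or for NICD. Unless a value or the alternative's construction shows it, the cause was not tested.

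DESeq2 called 1281 genes with age in controls, 1083 in the cKO, 193 for the interaction, 318, 100 and 160 for cKO against control (E12.5, E14.5 PLET1+, PLET1-), 1215 and 2262 for NICD against E14.5 and E12.5 controls, and 153 and 152 for PLET1- against PLET1+ (controls, cKO), with *Igf2bp1* at -1.73 with age in controls. Limma-voom called 448 with age in controls, 0 for cKO at E12.5, 998 and 1500 for NICD, and 1 and 2 for PLET1; *Lin28b* was 0.053 with age in controls, -1.74 for cKO in PLET1- and -0.52 for PLET1 in the cKO, and *Igf2bp1* 0.052 for the interaction and -0.13 for cKO at E12.5. With no filter, the counts were 519 and 393 with age, 24 for the interaction, 52, 10 and 15 for cKO, 677 and 1129 for NICD, and 16 and 23 for PLET1; with a stricter filter *Igf2bp2* was -0.0038 with age in controls.

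Housekeeping scaling gave 79 genes with age in the cKO, 0 for cKO at E12.5 and 413 for NICD. *Igf2bp2* was then -0.11 with age in controls, 0.24 and 0.13 for NICD against E14.5 and E12.5, *Igf2bp1* 0.31 for the interaction and -0.46 for cKO at E12.5, *Hmga2* -0.34 there, and *Igf2bp3* 0.020 for NICD. Without batch terms, 95 genes were called with age in the cKO and 0 for cKO at E12.5; *Igf2bp2* was -0.047 with age in controls, and *Igf2bp1* 0.090 for the interaction and -0.13 for cKO at E12.5. With only the groups compared, the counts were 1 and 2 with age, 0 for cKO at E12.5, and 17 and 325 for NICD. Averaged over genotypes, 984 genes and *Igf2bp1* (-1.77) were called.

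With the replicate block, 89 genes were called with age in the cKO, 2 for cKO at E12.5 and 79 for NICD. The block changed no member's call. Replicate numbers did not pair the libraries at E12.5, between ages or for NICD, so there the block is no check of the result. *Igf2bp1* and *Igf2bp3* were -0.047 and 0.018 for cKO at E12.5, *Lin28b* -0.79 for cKO in PLET1- and -0.50 for PLET1 in the cKO, *Igf2bp2* -0.052 with age in controls, and *Igf2bp3* 0.14 for NICD.

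Leaving out 1 library at a time gave 90 to 149 genes with age in controls, 57 to 111 in the cKO, 0 to 3 for the interaction, 0 to 6 for cKO at E12.5, 31 to 172 for NICD against E14.5 and 286 to 561 against E12.5, where the whole set gave 185, 150, 0, 5, 131 and 538. The lowest counts came without E14.5 PLET1+ control replicate 2 (age in controls, NICD against E14.5), E12.5 cKO replicate 3 (age in the cKO), E12.5 cKO replicate 2 (cKO at E12.5) and E12.5 control replicate 2 (NICD against E12.5). *Hmga2* ranged from -2.81 to -2.07 with age in controls, -0.36 to 0.25 for cKO at E12.5, -0.024 to 0.64 for NICD and -1.13 to 0.10 for PLET1 in the cKO. *Igf2bp1* ranged from -0.40 to 0.31 for the interaction and, for cKO, -0.30 to 0.36 (E12.5), -0.21 to 0.30 (PLET1+) and -0.20 to 0.16 (PLET1-). *Igf2bp2* ranged from -0.29 to 0.086 with age in controls, for cKO -0.36 to 0.025, -0.045 to 0.26 and -0.34 to 0.019 in the same order, -0.31 to 0.11 and -0.32 to 0.11 for NICD against E14.5 and E12.5, and -0.059 to 0.19 for PLET1 in controls. *Igf2bp3* ranged from -1.0 to 0.058 with age in controls, -0.39 to 0.69 for the interaction, for cKO -0.55 to 0.52, -0.22 to 0.39 and -0.18 to 0.52, and for PLET1 -0.13 to 0.51 and -0.057 to 0.56. *Lin28b* ranged from -2.04 to 1.40 with age in controls, -9.57 to 1.71 for cKO in PLET1-, -4.73 to 0.051 and -5.95 to 0.72 for NICD, and -6.86 to 5.61 for PLET1 in the cKO.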
